A study of Mus musculus with 12 samples.

Results

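The genes described here are the tumour necrosis factor (TNF) module of LPS-treated microglia: the ligand genes Tnf and Tnfsf9, the receptor genes Tnfrsf1a and Tnfrsf1b, the receptor-complex genes Tradd, Ripk1, Traf1 and Traf2, the death inhibitor Cflar and the feedback inhibitor Tnfaip3, which encodes A20. They were chosen by gene name, and all peaks assigned to those names in both deposited m6A peak lists are described. This gave 10 of the 14070 genes with a peak in either list, with 25 of the 41153 peaks of the Mettl3 knockout (KO) list and 31 of the 36682 peaks of the wild-type (WT) list. N6-methyladenosine (m6A) was mapped by methylated RNA immunoprecipitation in BV2 cells, an immortalised mouse microglial line. The labels describe 12 libraries from LPS-treated cells, namely 3 immunoprecipitate (IP) and 3 input libraries from Mettl3 KO cells and 3 IP and 3 input libraries from WT cells, and LPS is common to all of them. No untreated cells, LPS dose, exposure time or number of knockout clones is given in the sources used here. The deposited values are 1 list per genotype, so no spread between replicates could be measured, no test between genotypes was possible, and the depth of the libraries is unknown. Mettl3 itself had a strongest peak of log2 2.07 in the KO list and 1.57 in the WT list; this ratio of IP to input gives no transcript level, so the lists hold no check of the knockout. Of 12 markers of microglia and macrophages, 11 had a peak in both lists and P2ry12 had none in either. Of 12 markers of neuroblastoma cells and neurons, which the extraction protocol mentions, Tubb3 alone had a peak, at a log2 of 0.94 in the KO list and 0.89 in the WT list. A peak shows that RNA of a gene was sequenced and not its level, and a missing peak does not show that the RNA was absent.

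METTL3 is the catalytic subunit of the complex that methylates adenosines in messenger RNA, mostly within the consensus RRACH and mostly in long exons, around stop codons and in 3′ UTRs. The mark is read by YTH-domain and other proteins that can shorten the life of a transcript or alter its translation. TNF is released by microglia after LPS and binds 2 receptors, TNFR1 (Tnfrsf1a), which is widely expressed and carries a death domain, and TNFR2 (Tnfrsf1b), which lacks one. TNFR1 recruits TRADD, which brings in the kinase RIPK1 and the ubiquitin ligase adaptor TRAF2; from this platform the cell activates NF-kB, and when it fails a death complex can form, which the caspase-8-like protein encoded by Cflar holds in check. A20 edits ubiquitin chains on the platform and ends the signal.

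Every value given for a peak is the authors' log2 of IP over input for that peak. It measures how much of a transcript's fragments the m6A antibody recovered and not how much of the transcript there was. A difference is the KO value minus the WT value, so a negative one means lower enrichment in the KO list, and each list carries its own scaling. A peak's span is genomic and includes introns. Positions are 1-based and as deposited. The lists name no genome build, but 13046 of 13047 genes with a symbol in the RefSeq table of GRCm38.p6 overlapped their position there, and 6241 had an identical start or end.

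Sequence was at hand only for the stretch around annotated gene starts, so the sites shown are those at the 5′ ends of genes of the module that a peak covered. Of the 10 genes, 8 had a RefSeq start window of 300 bases; Tnfsf9 and Tradd had none. These windows were searched for GGAC followed by any base other than G, the forms of the consensus that begin with a pair of guanines. Peaks covered a match in 4 genes. The windows of Traf1, Traf2, Tnfrsf1b and Tnfaip3 had no base inside a peak, so that count does not say whether they hold a match. On the RNA strand 60.2% of the 32851 windows of the RefSeq table held at least 1 match (60.4% on the opposite strand), and in the 50 bases after the start 15.4% did (14.4% on the opposite strand), so a match is common and does not locate a methylated base. The 6 windows below are RefSeq GRCm38.p6 sequence on the RNA strand, 5′ to 3′, with the matches in capitals.
Tnf, chr17:35201970-35201999, minus strand: ctccctcagcgaGGACAgcaagGGACTagc
Ripk1, chr13:34002792-34002821, plus strand: atttctgcgcgtGGACCggagggcggggct
Ripk1, chr13:34002839-34002868, plus strand: gggtggcgggcgGGACTtcaaacgttcccg
Tnfrsf1a, chr6:125349559-125349588, plus strand: ctggaattctgtGGACTctcaagctcttaa
Tnfrsf1a, chr6:125349611-125349640, plus strand: cgccaagctacgGGACCcgggctacaaagc
Cflar, chr1:58711511-58711540, plus strand: cgtctccattttgcGGACCctaaagcacgc
The Tnf and Ripk1 windows lay inside a peak of both lists, whereas the Tnfrsf1a and Cflar windows lay wholly inside a peak of the WT list only. No KO peak touched the Tnfrsf1a windows. In Cflar a KO peak started inside the window, at 58711533, past the match, and covered its last 8 bases. That KO peak had a log2 of 0.77, and the WT peak over the window one of 0.60. Tnf held 2 matches within the first 50 bases of its transcript, and 1.33% of all such stretches held 2 or more. The Ripk1 and Tnfrsf1a matches lie before the RefSeq start nearest to them and inside the gene as the lists place it.

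Across the module, the strongest peak of every gene carried the 3′ UTR annotation in either genotype, and its deposited value was lower in the KO list. That annotation was given to 10 of 10 strongest peaks in the KO list, beside 62.5% of all genes with a KO peak, and to 10 of 10 in the WT list, beside 61% of all genes with a WT peak. A peak has 1 annotation however long it is, so for Tnf and Tnfsf9 in WT and Tradd in both, whose peaks ran over the whole gene, it does not place the enrichment within the gene. Nor does it place the enrichment within the long strongest peaks of Cflar, Traf2, Ripk1, Tnfrsf1b and, in WT, Traf1. These spanned from 5967 bases (Traf1) to 22489 bases (Cflar in KO), introns included. The KO and WT strongest peaks of a gene overlapped each other in all 10. The strongest value was lower in the KO list for 10 of 10 genes, beside a background of 73.4% of the 12320 genes that both lists hold. Once differences were centred on the median of all genes, 9 of 10 were lower, Tnf then standing at 0.01. The share over all genes is then 50%, which the centring sets. The difference reached 1 or more on the log2 scale (2-fold) for Tnfsf9 alone, beside 9.54% of all genes lower by that much and 0.714% higher. With fold minus 1 summed over a gene's peaks, 5 of 10 passed 1, beside 23.4% of all genes. That measure also moved genes with 1 peak in each list, Tnfrsf1b from -0.88 to -1.05 and Tradd from -0.73 to -1.14. When each base covered in both lists took the value of its whole peak, 2 of 10 passed 1, beside 6.98%. Traf1 was then at -1.87, with 876 of its bases set at 0.56 in KO against 3.58 in WT. The median difference over the 10 genes was -0.80, beside -0.25 over all genes (quartiles -0.64 and 0.02). Strongest peaks of at least 8-fold were found for 0 of the 10 genes in the KO list, beside 2.21% of all genes with a KO peak, and for 4 in the WT list (Tnfsf9, Traf1, Tnfaip3 and Tnfrsf1b), beside 8.67%. Strongest peaks of at least 4-fold were found for those 4 genes in the KO list, beside 11.4%, and for 6 genes in the WT list, Ripk1 and Tnfrsf1a being the others, beside 28%. Among peaks of at most 1000 bases only 4 genes kept a peak in both lists, 2 of them lower in KO (Tnfrsf1a and Cflar) and 2 higher (Ripk1 and Traf1), beside 58.2% of all genes lower. When all peaks of a gene were averaged 8 of 10 were lower, beside 77.2% of all genes, Traf2 and Tnfaip3 being higher.

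**Figure D1:**
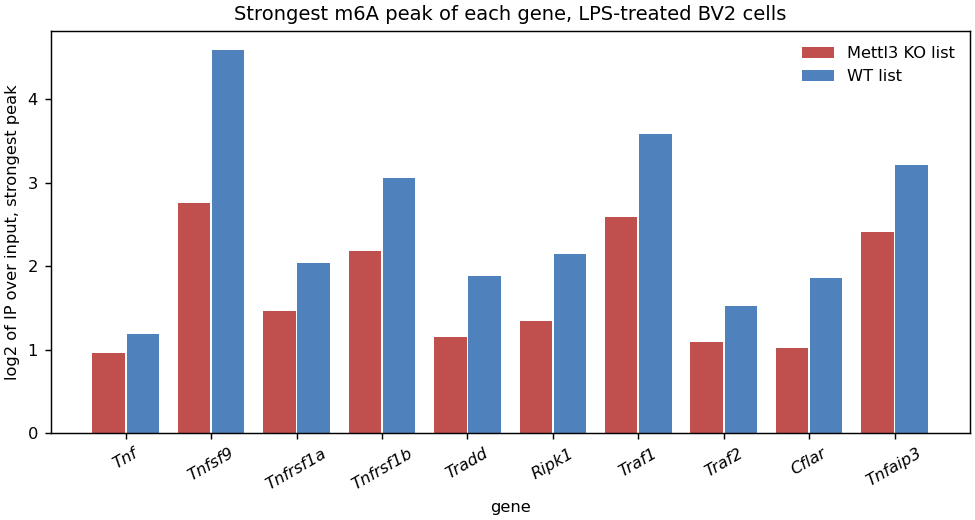
Strongest peak of each of the 10 genes, as the authors' log2 of IP over input on the vertical axis, with the Mettl3 KO list as the left bar and the WT list as the right bar of each gene; there are no error bars because each list gives 1 value per peak. On this uncentred scale the KO bar is the shorter one for every gene, from a difference of -1.83 for Tnfsf9 (2.75 in KO and 4.58 in WT) to one of -0.24 for Tnf (0.95 in KO and 1.19 in WT).

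Of the ligands, Tnf, the founding member of the family, had the weakest strongest peak of the 10 genes in both lists. In the KO list it carried 2 peaks: chr17:35199381-35200380 on the minus strand, a 3′ UTR peak of log2 0.95 (1.94-fold, adjusted p = 5.9e-147), and chr17:35200556-35202007, a 5′ UTR peak of log2 0.76 (1.70-fold, adjusted p = 1.11e-46). In the WT list a single peak of 2627 bases ran over the whole annotated gene, chr17:35199381-35202007, with a log2 of 1.19 (2.28-fold) and an adjusted p listed as 0. The KO peaks thus covered 93.3% of the same gene, and both had lower values than the WT peak that spans them. The difference of -0.24 for Tnf was close to the median of all genes. Of all genes with a peak, 38.1% in the KO list and 42.0% in the WT list had a weaker strongest peak than Tnf.

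Tnfsf9, which encodes the ligand of the costimulatory receptor TNFRSF9, stood at the other end. Its 1 KO peak, chr17:57105350-57107757 on the plus strand, had a log2 of 2.75 (6.73-fold), and its 1 WT peak, chr17:57105325-57107757, a log2 of 4.58 (24.0-fold); both adjusted p were listed as 0. These peaks shared 2408 bases, all of the KO peak and 99.0% of the WT peak, and ran to the 3′ end of the gene. The difference of -1.83, a KO value of 0.281 times the WT value, was the largest of the 10, and 1.12% of all genes had a lower one. Tnfsf9 still ranked high in the KO list, where 96.7% of genes had a weaker strongest peak (99.2% in WT). The start of Tnfsf9 overlaps the gene Gm11110 on the opposite strand. The libraries were strand-marked, per the labels' protocols.

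**Figure D2:**
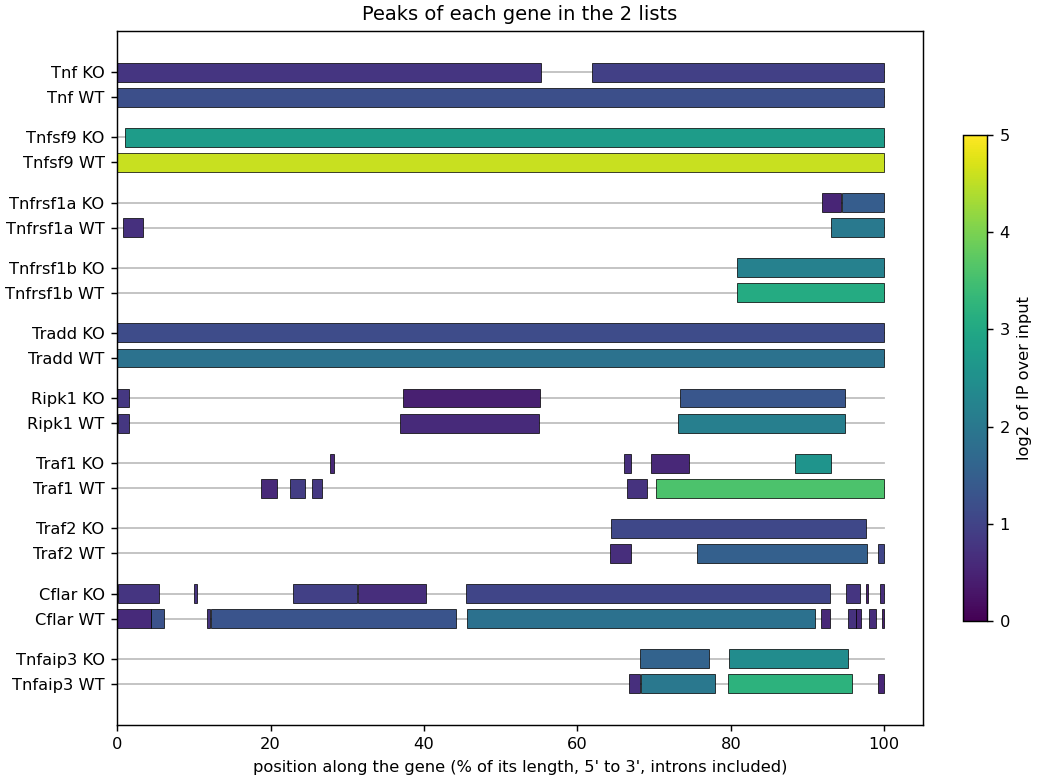
Peaks of the 10 genes drawn along each gene from its 5′ end to its 3′ end (horizontal axis, percent of the gene's genomic length, introns included), with the KO list above the WT list and colour giving the log2 of IP over input. Except in Cflar, the strongest peak lies in the 3′ part of the gene or runs over all or nearly all of it. The Cflar one starts 21519 (KO) or 21594 (WT) bases into a gene of 47377 bases. The strongest peaks of the lists overlap, over unequal stretches for Tnf (38.1% of the WT peak) and Traf1 (15.9%), and the KO one has the lower value for all 10 genes.

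For the receptors, the data showed 1 dominant peak each, annotated as 3′ UTR. Tnfrsf1a, the death-domain receptor, had its strongest KO peak at chr6:125361769-125362484 on the plus strand, at a log2 of 1.46 (2.75-fold, adjusted p = 1.11e-223), and its strongest WT peak at chr6:125361569-125362484, with a log2 of 2.03 (4.09-fold, adjusted p listed as 0). Both ran to the last base of the gene, and the KO peak was the 3′ part of the WT one. A second KO peak, chr6:125361419-125361743, was annotated as coding exon and had a log2 of 0.51; 175 of its bases lay inside the strong WT peak. The second WT peak was at the other end of the gene, chr6:125349462-125349800, in the 5′ UTR, at a log2 of 0.70 (adjusted p = 1.58e-06) and no overlapping KO peak. It holds the Tnfrsf1a sequences shown above.

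Tnfrsf1b, the receptor without a death domain, offered a direct comparison, because its only peak had the same coordinates in both lists. This peak, chr4:145213463-145219890 on the minus strand, spanned 6428 bases and carried the 3′ UTR annotation. Its log2 was 2.18 (4.53-fold) in the KO list and 3.06 (8.32-fold) in the WT list, a difference of -0.88. The other peak with identical coordinates was that of Tradd, the adaptor that binds the TNFR1 death domain. Its peak covered the whole gene, chr8:105258286-105264609 on the minus strand, at a log2 of 1.15 (2.21-fold, adjusted p = 2.3e-124) in the KO list and 1.88 (3.67-fold, adjusted p = 4.4e-272) in the WT list, a difference of -0.73. Over all 2916 peaks with identical coordinates in the lists, 61.9% were lower in KO, by a median difference of -0.06. Among the 224 of these with a mean log2 from 2 to 3, where Tnfrsf1b falls, the median was -0.65 (quartiles -1.01 and -0.10), and among the 876 from 1 to 2, where Tradd falls, it was -0.14 (quartiles -0.43 and 0.08).

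Ripk1, the kinase whose scaffold and catalytic functions steer TNFR1 output between survival and death, kept the same layout of 3 peaks in both lists. The 3′ UTR peak had a log2 of 1.35 (2.54-fold) over chr13:34027876-34035353 in the KO list and 2.14 (4.40-fold) over chr13:34027776-34035353 in the WT list, with both adjusted p listed as 0. The coding-exon peak in the middle of the gene had a log2 of 0.44 in the KO list and 0.60 in the WT list. The 5′ UTR peak had a log2 of 0.81 (chr13:34002363-34002879) in the KO list and 0.79 (chr13:34002388-34002879) in the WT list. The difference was therefore -0.79 for the long peak annotated 3′ UTR, -0.16 for the coding-exon peak and 0.02 for the 5′ UTR peak, where the Ripk1 sequences shown above lie. The 5′ end of Ripk1 overlaps Serpinb6a on the opposite strand.

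Traf1 and Traf2 encode adaptors that link receptors of the family to ubiquitin ligases, and Traf1 is itself a classical NF-kB target. The strongest Traf1 peak had a log2 of 2.59 (6.03-fold, adjusted p = 8.48e-55) over 950 bases in the KO list, chr2:34943125-34944074, and of 3.58 (11.99-fold, adjusted p listed as 0) over 5967 bases in the WT list, chr2:34941750-34947716. The KO peak lay inside the WT peak and made up 15.9% of it, so the difference of -0.99, just under the 2-fold mark, sets peaks of unequal extent side by side. A second KO peak, chr2:34946841-34947841, annotated as coding exon, had a log2 of 0.56 and shared 876 of its bases with that WT peak. The remaining 2 KO peaks and 4 WT peaks of Traf1 lay further 5′, with log2 values from 0.57 to 0.68 in KO and from 0.57 to 0.88 in WT, and of these 1 KO peak and 3 WT peaks, the intronic ones among them, had no counterpart in the other list. In all, Traf1 peaks spanned 2226 bases in the KO list and 7592 in the WT list.

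Traf2 showed the opposite change of extent. A single KO peak, chr2:25518682-25528300, had a log2 of 1.09 (2.12-fold, adjusted p = 7.44e-79). In the WT list the region was split into a 3′ UTR peak, chr2:25518632-25525042, with a log2 of 1.52 (2.87-fold, adjusted p = 9.96e-141), and a coding-exon peak, chr2:25527543-25528350, with a log2 of 0.65. Another WT peak covered the last 250 bases of the gene, chr2:25517982-25518231, with a log2 of 1.03 (adjusted p = 0.00044), and had no KO counterpart. It was the strongest of the 9 WT peaks of the module that no KO peak overlapped. The strongest peaks differed by -0.44.

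Cflar, which encodes the c-FLIP inhibitor of death-receptor signalling, was the most fragmented gene, with 8 peaks in the KO list and 10 in the WT list. Its strongest peak carried the 3′ UTR annotation but spanned 22489 bases in KO and 21489 in WT, introns included. In the KO list it had a log2 of 1.02 (2.03-fold, adjusted p = 3.37e-178) over chr1:58733027-58755515. In the WT list it had a log2 of 1.86 (3.63-fold, adjusted p listed as 0) over chr1:58733102-58754590, a difference of -0.84. The authors assign it to transcript ENSMUST00000114309 in both lists. Peaks annotated as 5′ UTR reached a log2 of 0.95 in the KO list and 1.31 in the WT list. Of the 9 overlapping pairs of Cflar, 5 had the higher value in KO. One lay at the 5′ end, at 0.77 in KO and 0.60 in WT, and one set the long KO peak of 1.02 beside a short WT peak of 0.56. The other 3, assigned to transcript ENSMUST00000114313 towards the 3′ end of the gene, stood at 0.77 in KO beside WT peaks of 0.71 and 0.57, and at 0.65 in KO beside 0.44 in WT. A further peak in that stretch was found in 1 list only on each side, at 0.42 in KO and 0.63 in WT. An intronic peak without a counterpart was also found on each side, nearer the 5′ end. It stood at 0.73 in KO (adjusted p = 0.0506) and at 0.74 in WT (adjusted p = 0.0432).

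Tnfaip3 encodes A20, which NF-kB induces and which in turn limits NF-kB. Its main 3′ UTR peak had a log2 of 2.41 (5.30-fold, adjusted p = 1.06e-122) over chr10:19001610-19003894 on the minus strand in the KO list and 3.21 (9.24-fold, adjusted p listed as 0) over chr10:19001535-19003919 in the WT list. A neighbouring coding-exon peak had a log2 of 1.57 (2.98-fold, adjusted p = 6.77e-33) in the KO list and 2.00 (4.00-fold, adjusted p = 1.11e-100) in the WT list. Both differences were negative, -0.80 for the peak annotated 3′ UTR and -0.43 for the one annotated as coding exon. The 2 other Tnfaip3 peaks, of 200 bases in a coding exon (0.68) and of 125 bases at the 3′ end of the gene (0.53), were in the WT list only.

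Taken peak by peak, 22 of the 25 KO peaks overlapped a WT peak, beside 72.9% of all KO peaks, and 22 of the 31 WT peaks overlapped a KO peak, beside 77.2% of all WT peaks. Peaks without a counterpart ran from a log2 of 0.42 to 0.73 for the 3 in KO, where the median of all peaks was 0.70, and from 0.53 to 1.03 for the 9 in WT, where it was 0.83. The 22 and 22 peaks formed 26 overlapping pairs, some peaks being in more than 1 pair. With a mean log2 of at least 1, 15 of 15 pairs were lower in KO, beside 81.9% of such pairs over all genes, and their median difference was -0.79, beside -0.55. Below that mean, 4 of 11 pairs were lower and 7 higher in KO, beside 63.7% of such pairs lower over all genes, and the median was 0.07, beside -0.06. Those 7 pairs were 5 in Cflar, 1 in Ripk1 and 1 in Traf2.

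**Figure D3:**
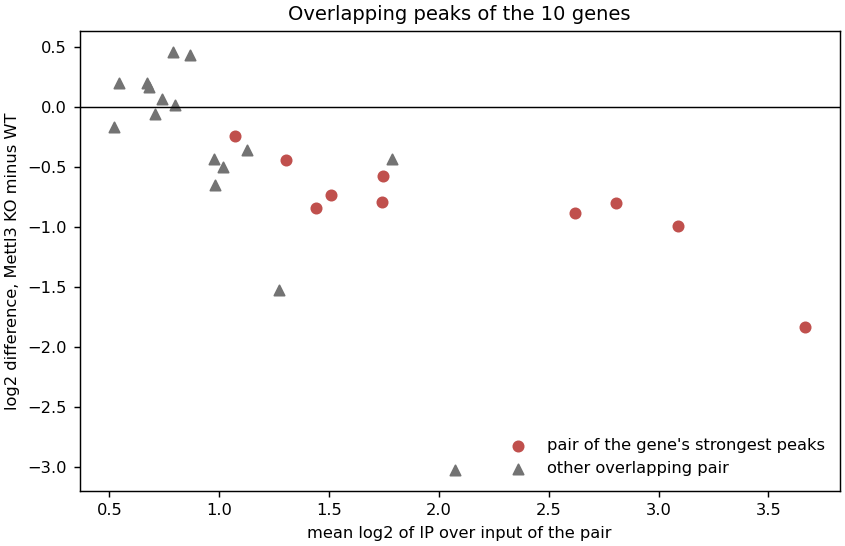
Overlapping peak pairs of the 10 genes, with the mean log2 of the pair on the horizontal axis and the log2 difference, KO minus WT, on the vertical axis; circles are pairs of a gene's strongest peaks and triangles are the other pairs. All 15 pairs with a mean of at least 1 lie below 0, and the 7 pairs above 0 all have a mean below 1; the lowest point, at -3.02, sets a Traf1 coding-exon KO peak (0.56) against the long WT peak that overlaps it (3.58).

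Over all genes the difference was larger where peaks were stronger than an average log2 of 1.5. Most of the 10 genes lay within the quartiles of genes of like strength, and most lay below the median of those genes. Among the 3895 genes whose strongest peaks averaged 1 to 1.5 over the lists, the median difference was -0.25 (quartiles -0.52 and 0.01); Tnf and Traf2 fell within these quartiles and Cflar, at -0.84, below them. Among the 2055 genes from 1.5 to 2 the median was -0.63 (quartiles -0.86 and -0.32), and Tnfrsf1a, Tradd and Ripk1 fell within. Among the 1832 genes from 2 to 3 it was -0.82 (quartiles -1.08 and -0.48), with Tnfrsf1b and Tnfaip3 within. Among the 455 genes of 3 or more it was -0.77 (quartiles -1.21 and -0.20), with Traf1 within and Tnfsf9 below. Thus 8 of 10 genes lay within the quartiles of their class, 2 below and 0 above. By definition the quartiles enclose 50% of the genes of a class, with the rest split evenly below and above. Of the 10 genes, 7 lay below the median of their class, beside 50% by definition. Some of these placements rest on the class edges. Cflar (mean 1.44) would fall within the quartiles of the 1.5 to 2 class. Tradd (mean 1.51, difference -0.73) would fall below those of the 1 to 1.5 class. Tnf (mean 1.07, difference -0.24) would fall below those of the 0.75 to 1 class (-0.20 and 0.09).

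**Figure D4:**
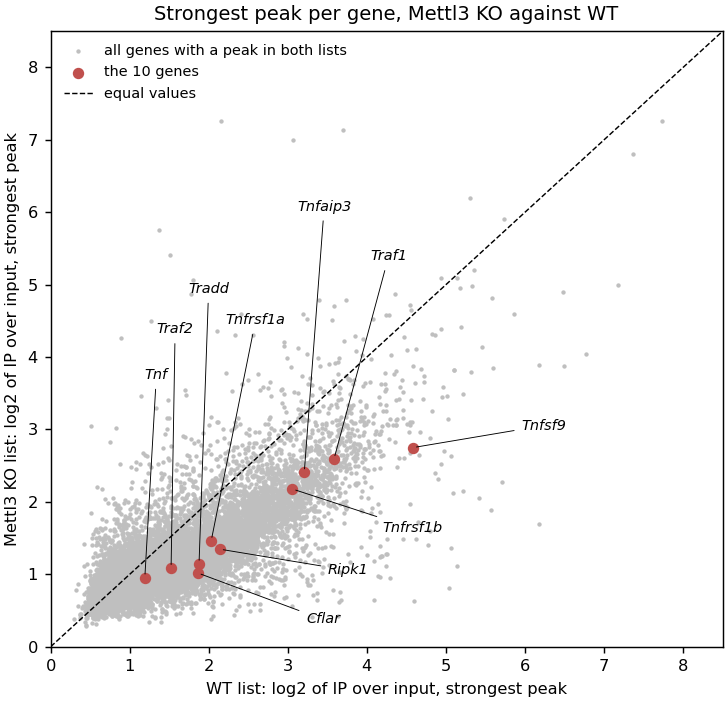
Strongest peak per gene in the WT list (horizontal axis) and the KO list (vertical axis), both as log2 of IP over input, for the 12320 genes found in both (grey) and the 10 genes (red, labelled); the dashed line marks equal values. All 10 genes lie below the line on this uncentred scale. Tnfsf9 and Cflar lie below the quartiles of their strength class and the other 8 within them, where 50% of a class lies by definition. The placing of Cflar, Tradd and Tnf depends on class edges.

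The other genes of the pathway were followed through 5 lists by role, 71 genes in all, of which 46 had a peak in both lists, 4 in WT only and 2 in KO only, beside 7.41% of all genes with a peak in WT only and 5.02% in KO only. The strongest value was lower in KO for 35 of these 46 and higher for 11, which is near the 73.4% of all genes, and the same share is the background for each list that follows. Their median difference was -0.44, and 4 were lower by 1 or more, beside 9.54% of all genes. Of the 7 further ligands with a peak in both lists, 6 were lower in KO. Tnfsf14, the ligand of the herpesvirus entry mediator, stood at 1.93 in KO and 3.07 in WT, and Tnfsf18, the ligand of TNFRSF18, at 1.34 in KO and 2.46 in WT. Ltb, a neighbour of Tnf in the genome that encodes lymphotoxin beta, stood at 1.01 in KO and 1.87 in WT. Tnfsf15 (4.37) and Tnfsf10 (3.61), which encodes the death ligand TRAIL, had a peak in the WT list only.

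Of the 12 further receptors with a peak in both lists, 8 were lower and 4 higher in KO. Ltbr, the lymphotoxin beta receptor, stood at 2.93 in KO and 4.16 in WT, and Tnfrsf11a, the receptor RANK, at 2.54 in KO and 3.49 in WT. Tnfrsf8, which encodes CD30, went the other way with 3.01 in KO and 2.18 in WT. Tnfrsf9, the receptor of the Tnfsf9 product, chosen after its values were seen, differed little, at 0.80 in KO and 0.77 in WT. Tnfrsf4 (1.08) and Tnfrsf14 (0.90) had a peak in the KO list only, and Cd27 (1.04) and Tnfrsf18 (1.04) in the WT list only.

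All 17 genes of the receptor complex and its ubiquitin editing had peaks in both lists, and 13 were lower in KO. Among them were Otulin, which removes linear ubiquitin chains (1.49 in KO and 2.48 in WT), Cyld, another deubiquitinase (1.64 in KO and 2.29 in WT), and Tnip3, an A20-binding protein (1.44 in KO and 2.45 in WT). In the death arm, 5 of 7 genes were lower in KO, with a median difference of -0.19. Fadd, the adaptor that recruits caspase-8, stood at 1.22 in KO and 2.00 in WT, a difference that turned to 0.09 among peaks of at most 1000 bases. Bid, which carries the caspase-8 signal to mitochondria, stood at 1.61 in KO and 2.11 in WT, whereas Casp8 stood at 2.07 in KO and 1.91 in WT, in an intronic peak in both, an order that turned with the sum over peaks and over bases covered in both. All 3 genes of TNF shedding with a peak in both lists were lower in KO, and the other 2 of that list had no peak. Adam17, the protease that releases TNF from the membrane, stood at 0.94 in KO and 1.38 in WT. Its partner Rhbdf2 stood at 0.81 in KO and 1.69 in WT. Frmd8, another partner, stood at 0.88 in KO and 1.13 in WT, a difference that turned to 0.15 among peaks of at most 1000 bases.

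**Figure D5:**
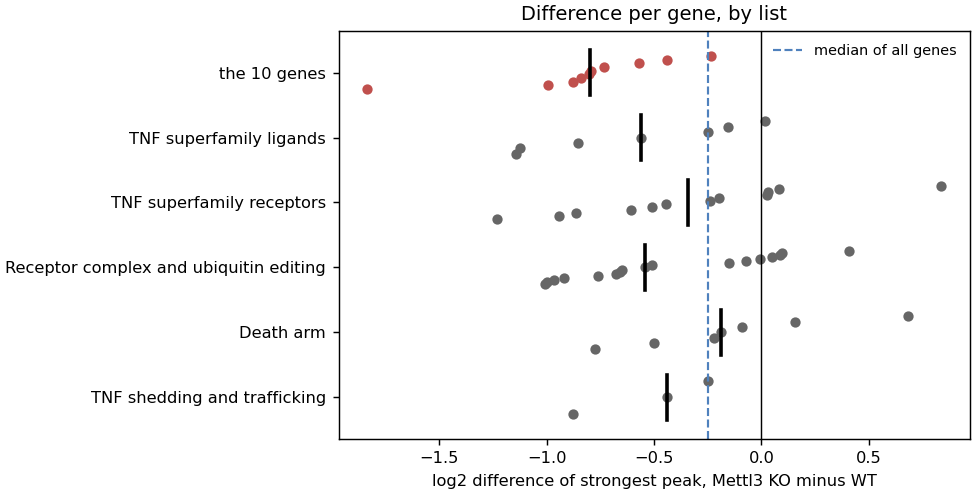
Difference of the strongest peak, KO minus WT on the log2 scale (horizontal axis), for each gene with a peak in both lists, with the 10 genes in the top row and the 5 lists of other pathway genes below; black bars are medians and the dashed line is the median of all genes (-0.25). The median of the 10 genes is -0.80, and the medians of the other lists run from -0.56 for ligands to -0.19 for the death arm, each list with genes on either side of the dashed line except shedding, whose highest value is -0.25.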

How the data were processed

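Per the labels' protocols, fragments of poly(A) RNA were recovered with an antibody against m6A, and the second strand of the cDNA was marked and removed. HISAT2, StringTie, HOMER, edgeR, fastp and FastQC are named in the submitters' processing notes, with no roles; which program called peaks, on which build, and whether replicates were pooled is not given in the sources used here. Per the file headers, the authors deposited a log2 value of IP relative to input and an adjusted p-value for every peak, both used as deposited; 1403 KO and 2502 WT peaks have an adjusted p listed as 0. Starts were counted from 0 (5186 KO and 5098 WT peaks start at the annotated gene start once 1 is added), so 1 was added. Peaks overlap where they share 1 base or more on 1 strand. A gene's value is its strongest peak. The members, lists and strength classes were chosen with earlier results of these data known. Named genes are the 10 members and, from each pathway list, the 3 with the highest mean, those in 1 list only and those that differ by at least 1. The comparison per gene and the overlap of peaks were tested on simulated data, a list made from the WT peaks at unchanged coordinates. Peaks of changed extent were not simulated, and the other steps were not tested in this way. Python 3.11.15, pandas 2.3.3, numpy 2.4.6 and matplotlib 3.10.9 were used.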

Additional observations from a re-analysis of the deposited data

How the results depend on the processing

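With peaks of an adjusted p of at most 0.001, or of a log2 of at least 1, every one of the 10 genes that kept a peak in both lists (10 and 9) was lower in KO, beside 74.0% and 82.3% of all genes; Tnf lost its KO peak under the latter, which left 10 KO and 14 WT peaks and 21 of 23 pathway genes lower. Peaks of at most 1000 bases left 4 genes, because most strongest peaks are longer: 2 were lower in KO (median -0.23), and Ripk1 (0.0230) and Traf1 (1.71, its long WT peak being dropped) turned, as did Fadd (0.0935) and Frmd8 (0.15), and 20 of 34 pathway genes were lower. The mean over peaks gave a median of -0.32 and turned Traf2 (0.0190) and Tnfaip3 (0.38), whose WT lists hold extra peaks. The sum of fold minus 1 over peaks gave 5 genes past 1 (23.4% of all genes), turned Tnf (0.35), which has 2 KO peaks and 1 WT peak, and turned Casp8 (-0.23). Centring on the median of all genes turned Tnf (0.0104). The mean over bases that both lists cover, an alternative chosen after seeing the data, gave each base the value of its whole peak. It left 10 of 10 lower, beside 75.9% of all genes, with 2 past 1 (6.98% of all genes), and turned Casp8 (-0.0428). A reciprocal overlap of 50% left 14 of 25 KO and 14 of 31 WT peaks matched. Among peaks of at most 1000 bases, 6 of 11 KO and 6 of 18 WT peaks were matched. The shares over all peaks were not computed at these settings, so these counts have no background. No paired analysis was possible because the lists hold 1 value per peak and genotype; leaving out replicates was not run for the same reason. Lower enrichment and a changed input level of the same transcript were not tested apart, since no input values were analysed.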

Other observations

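The lists annotate 93 genes to the KEGG TNF signaling pathway, 9 of the 10 members among them; this set was chosen after seeing the data. Of the 84 others, 5 had a peak in WT only and 1 in KO only, beside 7.41% and 5.02% of all genes. Of the 78 with a peak in both lists, 52 were lower in KO and 26 higher, beside 73.4% of all genes lower. Their median difference was -0.26, close to that of all genes, and 9 were lower by 1 or more, beside 9.54% of all genes. Those 9 included Icam1, an adhesion molecule that TNF induces (1.89 in KO and 3.07 in WT), the kinases Map2k3 (1.22 in KO and 2.51 in WT) and Map2k4 (1.30 in KO and 2.39 in WT), the transcription factors Creb5 (1.15 in KO and 2.71 in WT) and Creb1 (2.19 in KO and 3.30 in WT), and Nod2, a sensor of bacterial peptidoglycan (2.51 in KO and 3.61 in WT).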
